A study of Mus musculus domesticus and Mus musculus domesticus x Mus musculus castaneus and Mus musculus castaneus with 27 samples.

Results

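The clustered protocadherins were taken as every gene whose symbol places it in the alpha, beta or gamma cluster (Pcdha, Pcdhb, Pcdhga, Pcdhgb and Pcdhgc followed by a number, with Pcdhac1 and Pcdhac2). The rule used names and no measured value. It found 54 members among the 27071 gene identifiers of the count table. They comprised 11 alpha, 21 beta, 12 gamma A and 5 gamma B members, and the 5 C-type members Pcdhac1, Pcdhac2, Pcdhgc3, Pcdhgc4 and Pcdhgc5. The annotation held 58 such genes, and Pcdha8, Pcdhb11, Pcdhgb1 and Pcdhgb6 were not analysed here.

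Clustered protocadherins are cell-surface adhesion molecules of the cadherin superfamily that are best known from neurons. In the alpha and gamma clusters each isoform has its own variable first exon with its own promoter, and that exon is spliced to constant exons shared by the whole cluster. Each beta gene is instead a single coding exon of its own. A neuron expresses a small set of these isoforms, chosen largely at random, and cells that carry matching sets recognise each other through homophilic binding, which lets a neuron avoid its own dendrites in the mouse. The C-type isoforms lie at the ends of the alpha and gamma clusters and are expressed more uniformly across neurons. The cohesin complex, the DNA-binding protein CTCF and DNA methylation take part in the choice of promoter.

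The study sequenced polyadenylated RNA from mouse pluripotent stem cells (PSC) and from motor neurons (MN) differentiated from them, to assess the identity of lines used for a culture model of neurite growth. The genotypes were C57BL/6 (BL6), CAST/EiJ (CAST), 129S6/SvEv (129), and 2 F1 hybrids of CAST and 129 named CAS129 and 129CAS, whose labels do not say which strain was the mother. The count table held 1 library of 129CAS MN, 3 of CAS129 MN, 1 of CAST MN, 2 of 129 MN and 7 of BL6 MN, and 2 PSC libraries each of CAS129, CAST and BL6. No label says that libraries of a group came from separate cultures or lines, so the p-values measure how far these samples scatter, and that scatter may be technical. RNA was prepared with a different kit from each cell type, so a difference due to the kit cannot be told apart from one between cell types.

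The MN libraries held 5612575 to 44572794 counts and the PSC libraries 4497912 to 13620056. Levels are counts-per-million values (CPM) after scaling by the trimmed mean of M values (TMM). Pou5f1, a pluripotency factor, averaged 0 CPM in 129CAS MN, 140 CPM in CAS129 MN, 0 CPM in CAST MN, 0.0856 CPM in 129 MN and 1.15 CPM in BL6 MN, against group means of 878 to 1433 CPM in PSC. The motor neuron factor Isl1 had group means of 10.5 to 78.8 CPM in MN and 0.254 to 0.290 CPM in PSC. Chat, which makes acetylcholine, had group means of 3.84 to 13.9 CPM in MN and 0.0359 to 0.0978 CPM in PSC, and Tubb3, a neuronal tubulin, 312 to 1196 CPM in MN and 35.2 to 60.3 CPM in PSC. The collagen gene Col1a1 had group means of 1545 to 7312 CPM in MN and 452 to 1344 CPM in PSC, and all 11 mesenchyme and fibroblast markers on the list used here were higher in MN over CAS129, CAST and BL6, where 36.1% of all genes were higher (edgeR). Within genotypes, 10 of the 11 were called higher in CAS129, 4 in CAST and 10 in BL6. Of all genes, 30.4% were higher in CAS129, 30.3% in CAST and 36% in BL6, so the CAST count was near the share of all genes. The MN libraries thus held RNA of neuronal and of mesenchymal marker genes, and the 3 CAS129 MN libraries also held Pou5f1.

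All members lie on the plus strand of mouse chromosome 18 (GRCm38). The alpha cluster spans 36930184 to 37187661, the beta cluster 37264938 to 37524479 and the gamma cluster 37661793 to 37841873. Gene-level counting cannot treat these loci like ordinary genes. In the annotation, a median of 46.4% of the exon bases of an alpha member belonged to that gene alone (range 8.6% to 61.1%), against 55.2% for gamma A, 56.6% for gamma B, 60.4% for C-type and 100% for beta members. The remaining bases of an alpha or gamma member are mostly the constant exons. Counting rules that drop reads from shared exons leave such genes with counts from their variable exon, and rules that keep them give the same read to many genes. Which rule made the table is stated by no source used here. In BL6 MN 1, Pcdha4 had 0 counts and Pcdha3 151, so no read of the shared alpha exons was counted for Pcdha4 there. Levels are therefore set beside each other between members only per kilobase of the exon bases that belong to 1 gene.

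The annotation also places genes on the opposite strand over exon bases of 13 members, and no source used here gives the strand setting. Gm26672 covers all 2613 own exon bases of Pcdhga10 and 1381 own bases of Pcdhga11. BC037039 covers 1559 of the 3380 own bases of Pcdhgc3. Without the strand setting, reads of these members and of their antisense partners cannot be told apart from the table.

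In the hybrid libraries the table listed some genes differently. Of 7749 genes with at least 5 CPM in all 14 libraries of inbred strains, 342 were listed at 0 in all 6 hybrid libraries, and Pcdhgc4 too was listed at 0 in all 6. The 2 identifiers that share the symbol Pcdha11 (ENSMUSG00000007440, which starts at 37005203, and ENSMUSG00000102206, which starts at 37010712) carried identical counts in every hybrid library and differed in the inbred ones. Counts of members called in comparisons with hybrids are given with and without these 3 identifiers where they change.

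Members of every cluster were higher in MN than in PSC. Over all members, 135017 counts fell in the 14 MN libraries and 1845 in the 6 PSC libraries. The summed level was 875 CPM in the 129CAS MN library, 432 ± 27.4 CPM in CAS129 MN (SD, n = 3), 720 CPM in the CAST MN library, 748 ± 91.4 CPM in 129 MN (n = 2) and 605 ± 83.3 CPM in BL6 MN (n = 7). In PSC it was 22.3 ± 1.06 CPM in CAS129, 21.3 ± 7.49 CPM in CAST and 45.0 ± 16.1 CPM in BL6 (SD, n = 2 each). The lowest MN library had 401 CPM and the highest PSC library 56.4 CPM, so the cell types did not overlap. The ratio of the group means was 19.4 in CAS129, 33.8 in CAST and 13.4 in BL6. In bulk RNA, fewer cells of a type and less RNA per cell cannot be told apart.

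**Figure D1:**
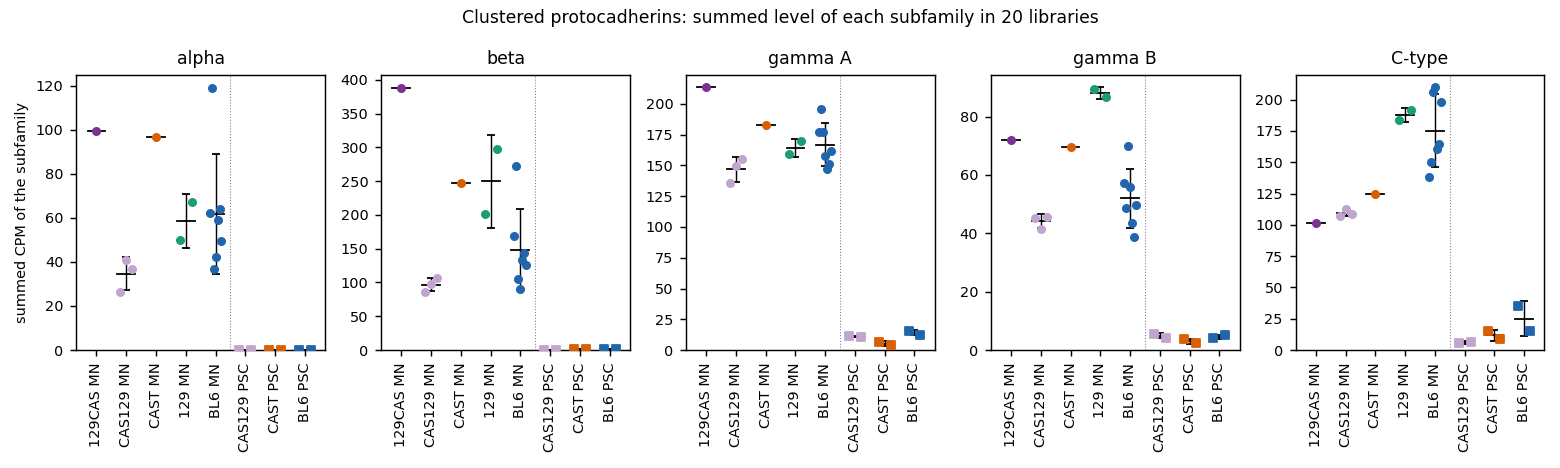
Summed level of the members of each subfamily (y axis, CPM) in every library, by group along the x axis, with motor neurons as circles left of the dotted line and pluripotent stem cells as squares to its right; horizontal lines are group means and bars are SD. Alpha and beta sums lie at or near 0 in stem cells, whereas gamma A, gamma B and C-type sums lie above 0 in all 6 stem cell libraries.

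The alpha members were almost unread in PSC. They had 12679 counts in MN and 2 counts in PSC, both in a BL6 PSC library and both assigned to ENSMUSG00000007440. Their sum was 99.3 CPM in 129CAS MN, 34.7 ± 7.59 CPM in CAS129 MN, 96.5 CPM in CAST MN, 58.5 ± 12.2 CPM in 129 MN and 61.9 ± 27.3 CPM in BL6 MN. Of the 11 alpha members, 10 had no count in any PSC library, and a limit of 3 counts corresponds to 0.215 to 0.587 CPM in a PSC library.

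Pcdha3 (ENSMUSG00000102312, 36946105 to 37187657) was the alpha member with the highest level per kilobase. It had 21.7 CPM in 129CAS MN, 7.14, 6.23 and 5.78 CPM in CAS129 MN, 18.7 CPM in CAST MN, 9.01 and 14.6 CPM in 129 MN, and 8.27 to 27.9 CPM in BL6 MN (median 14.7), against 0 in all 6 PSC libraries. Set against a floor of 3 counts over the PSC libraries, it was at least 249-fold higher in MN of CAS129, CAST and BL6. Pcdha1 was likewise at least 157-fold, Pcdha5 at least 147-fold and Pcdha12 at least 137-fold higher, all with no PSC count. Pcdha4, which has 494 own exon bases, was too low in all libraries to be tested.

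The beta members had 43458 counts in MN and 61 in PSC. Their sum was 388 CPM in 129CAS MN, 96.8 ± 9.94 CPM in CAS129 MN, 247 CPM in CAST MN, 250 ± 68.4 CPM in 129 MN and 149 ± 60.5 CPM in BL6 MN. In PSC it was 0.313 ± 0.443 CPM in CAS129, 1.29 ± 0.223 CPM in CAST and 1.29 ± 0.510 CPM in BL6. Since beta genes share almost no exon bases with other genes, these values are the least affected by the counting rule. Single libraries had 86.5 to 388 CPM in MN and 0 to 1.65 CPM in PSC, with no overlap.

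Single beta members showed the same contrast. Pcdhb6 (ENSMUSG00000051678, 37333921 to 37337674) had 30.1 CPM in 129CAS MN, 3.91, 2.94 and 1.87 CPM in CAS129 MN, 28.0 CPM in CAST MN, 8.37 and 11.2 CPM in 129 MN, and 3.28 to 11.9 CPM in BL6 MN (median 5.11), against 0 in every PSC library. It was at least 144-fold higher in MN. Pcdhb22 (ENSMUSG00000073591, 37517871 to 37524479), the last gene of the cluster, varied least among the beta members described here, with 23.9 CPM in 129CAS MN, 22.8, 18.7 and 22.4 CPM in CAS129 MN, 16.6 CPM in CAST MN, 30.5 and 33.0 CPM in 129 MN and 17.4 to 29.3 CPM in BL6 MN (median 24.0). It had 0.626 and 0 CPM in CAS129 PSC, 0.444 and 0.125 CPM in CAST PSC and 0.359 and 0.155 CPM in BL6 PSC, a ratio of 77.8 between the pooled cell types. Pcdhb19, with 4 PSC counts, had a ratio of 199 and Pcdhb17, with 9, a ratio of 89.96, both without an interval. Pcdhb2, with 2 PSC counts, had a ratio of 266 (95% counting interval 73.5 to 2201) and Pcdhb3, with 1, a ratio of 679 (122 to 26850). Such intervals cover counting error alone, without the spread between samples.

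The gamma members had a measurable level in PSC. Gamma A members had 33410 counts in MN and 594 in PSC, with sums of 213 CPM in 129CAS MN, 147 ± 9.996 CPM in CAS129 MN, 182 CPM in CAST MN, 164 ± 7.29 CPM in 129 MN and 167 ± 17.4 CPM in BL6 MN. In PSC the sums were 10.99 ± 0.614 CPM in CAS129, 5.28 ± 1.79 CPM in CAST and 13.96 ± 2.09 CPM in BL6. For all 12 gamma A members, all 14 MN libraries lay above all 6 PSC libraries, a count that was not made over all genes.

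Pcdhga10 (ENSMUSG00000102222, 37746993 to 37841873) had the highest level per kilobase in BL6 MN after Pcdhgc3. It had 27.3 CPM in 129CAS MN, 30.8, 27.5 and 25 CPM in CAS129 MN, 13.8 CPM in CAST MN, 24.7 and 22.1 CPM in 129 MN, and 28.9 to 45.8 CPM in BL6 MN (median 41.1), against 0 to 1.29 CPM in PSC. Over the 3 genotypes with both cell types, its log2 fold change in MN was 5.19 ± 0.36 (SE; adjusted p = 1.55e-09, edgeR). Pcdhga7 (ENSMUSG00000103472, 37714764 to 37841873) rose by 4.38 ± 0.39 on the log2 scale, Pcdhga3 by 5.79 ± 0.32 and Pcdhga11 (ENSMUSG00000102742, 37755731 to 37841873) by 3.16 ± 0.24, with adjusted p of at most 2.64e-08 in edgeR. Pcdhga11 had 1.13 to 3.30 CPM in all 6 PSC libraries, so its smaller fold went with a level in stem cells that the alpha and most beta members lacked.

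Gamma B members had 13670 counts in MN and 231 in PSC. Their sum was 72.1 CPM in 129CAS MN, 44.1 ± 2.39 CPM in CAS129 MN, 69.5 CPM in CAST MN, 88.0 ± 2.02 CPM in 129 MN and 52.0 ± 10.2 CPM in BL6 MN, against 2.26 to 5.48 CPM in the PSC libraries. Pcdhgb4 rose by 5.77 ± 0.45, Pcdhgb5 by 4.70 ± 0.45, Pcdhgb7 by 2.81 ± 0.29 and Pcdhgb2 by 2.57 ± 0.45 on the log2 scale in MN (adjusted p of at most 5.65e-05, edgeR). Pcdhgb8 (ENSMUSG00000103081, 37761801 to 37841870), annotated as a polymorphic pseudogene, had the smallest change of the members tested, at 1.84 ± 0.47 (adjusted p = 0.00189, edgeR). Its lowest MN library had 0.890 CPM and its highest PSC library 2.04 CPM, so its cell types overlapped.

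The C-type members had 31800 counts in MN and 957 counts in PSC. Pcdhgc3 (ENSMUSG00000102918, 37806364 to 37841873), which binds the Wnt pathway scaffold Axin1, had 22658 of these in MN and 860 in PSC. It had 36.6 CPM in 129CAS MN, 92.8, 93.2 and 90.7 CPM in CAS129 MN, 80.3 CPM in CAST MN, 130 and 140 CPM in 129 MN, and 93.1 to 172.5 CPM in BL6 MN (median 127.5). In PSC it had 4.23 and 6.26 CPM in CAS129, 13.8 and 7.89 CPM in CAST, and 31.3 and 13.8 CPM in BL6. The lowest MN library was above the highest PSC library, and the log2 fold change was 2.98 ± 0.28 (adjusted p = 4.46e-08, edgeR).

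The other C-type members were low or unread in PSC. Pcdhac2 (ENSMUSG00000102697, 37143503 to 37187657), which mouse serotonergic neurons need to space their axons, had 50.4 CPM in 129CAS MN, 9.01, 8.65 and 10.8 CPM in CAS129 MN, 27.4 CPM in CAST MN, 15.9 and 25.3 CPM in 129 MN, and 10.5 to 30.3 CPM in BL6 MN (median 12.1). It had 0.313 and 0 CPM in CAS129 PSC, 0.111 and 0 CPM in CAST PSC and 1.01 and 0 CPM in BL6 PSC, and rose by 5.56 ± 0.63 on the log2 scale in MN (adjusted p = 4.21e-07, edgeR). Pcdhgc5 (ENSMUSG00000102543, 37819513 to 37841873) rose by 3.30 ± 0.31 (adjusted p = 4.56e-08, edgeR), with 5.61 to 28.5 CPM in MN and 0.391 to 2.51 CPM in PSC. Pcdhac1 (ENSMUSG00000103255, 37090013 to 37187657) had 0 to 3.01 CPM in MN and 0 in every PSC library, and was at least 20.2-fold higher in MN. Pcdhgc4 (ENSMUSG00000023036, 37815079 to 37841873), which mouse neurons need for survival, had 4.43 CPM in CAST MN, 7.84 and 7.79 CPM in 129 MN and 2.31 to 9.66 CPM in BL6 MN (median 5.56), against 0.222 and 0.125 CPM in CAST PSC and 0.287 and 0.388 CPM in BL6 PSC, and is listed at 0 in every hybrid library.

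**Figure D2:**
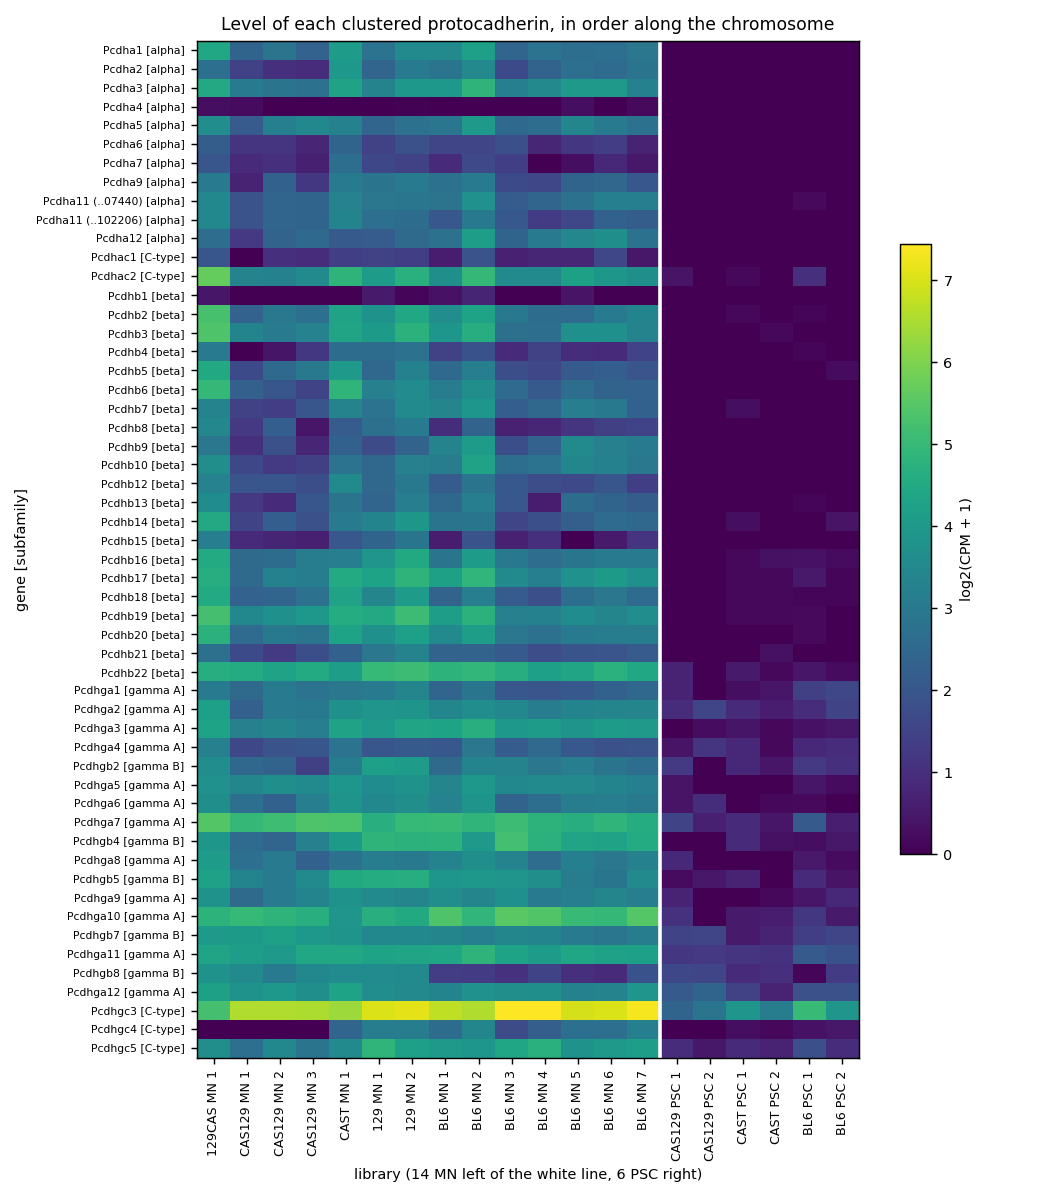
Level of each of the 54 members (rows, in chromosome order) in each of the 20 libraries (columns, 14 motor neuron libraries left of the white line and 6 stem cell libraries to its right), as log2(CPM + 1). Alpha and beta rows are at or near 0 in the stem cell columns, Pcdhgc3 is the brightest row there, and Pcdhgc4 is at 0 in the hybrid columns.

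A total of 52 members passed the filter of at least 1 CPM in 2 libraries, all but Pcdha4 and Pcdhb1, and in the fit over CAS129, CAST and BL6 all 52 were higher in MN (edgeR, adjusted p under 0.05). Of all 15596 genes tested, 36.1% were higher and 38.5% lower. Only 11 of the 54 members (6 gamma A, 3 gamma B and 2 C-type) passed the same filter in PSC alone, so the others entered the test through their MN values and had to differ. With members that had no PSC count held at their floor, the median log2 ratio of MN over PSC was 6.93 for the alpha members (9 of 10 at the floor), 6.58 for beta (7 of 21 at the floor), 4.56 for gamma A, 2.88 for gamma B and 4.34 for C-type. The median over all genes tested was -0.05. For 46 of the 54 members every MN library lay above every PSC library, a count that was not made over all genes. The exceptions were Pcdhgb8, Pcdhgc4 with its hybrid listing, and 6 members with 0 in at least 1 MN library (Pcdha4, Pcdha7, Pcdhac1, Pcdhb1, Pcdhb4 and Pcdhb15).

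Detection went the same way at equal depth. Of 54 members, 50 to 54 had at least 1 count in an MN library and 12 to 31 in a PSC library. After thinning each library to the 4497912 counts of the smallest, 50 to 53 members were detected in MN and 12 to 24 in PSC. Members at 1 CPM or more numbered 44 to 52 in MN and 3 to 10 in PSC.

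The MN change was present within each genotype. In CAS129, 49 of 52 members were higher in MN (edgeR; 30.4% of 15846 genes were higher), or 47 of 49 without Pcdhgc4 and the pair named Pcdha11. Pcdhac1, Pcdhb15 and Pcdhgc4 did not pass, although Pcdhac1 and Pcdhb15 passed without BL6 MN 2. Scaling by relative log expression gave 46 members in CAS129, without Pcdha7, Pcdhb4 and Pcdhga4. More members were lost in CAS129 without either CAS129 PSC library. In CAST, 52 of 52 were higher (30.3% of genes), and in BL6, 51 of 52 (36% of genes), where Pcdhgb8 had a log2 fold change of 0.98 ± 0.60 (adjusted p = 0.158, edgeR) and passed without BL6 PSC 2. The largest changes by fit were those of Pcdhb19, Pcdhb3 and Pcdha5 in CAS129, at least 47.1-, 32.7- and 27.5-fold higher than the floor of the CAS129 PSC libraries. In CAST they were those of Pcdhb6, Pcdhb20 and Pcdha3, at least 158.5-, 106.4- and 105.8-fold higher, and in BL6 those of Pcdha3, Pcdhb3 and Pcdhb10, at least 131-, 110- and 83.2-fold higher. The CAST MN group is a single library, whose spread is assumed to equal that of the other groups. Pcdhac1 was lost in CAST without CAST PSC 1. Pcdhga1 was lost in BL6 without either BL6 PSC library, BL6 MN 7, 129 MN 2, CAS129 MN 2 or CAS129 MN 3.

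A difference between genotypes in the size of the change was called for few members. The change in CAS129 exceeded that in BL6 for 2 of 52 members (edgeR; 13.7% of genes had a larger and 4.53% a smaller change), with 4 at an unadjusted p under 0.05. Pcdhga1 had a difference of 3.01 ± 0.81 (adjusted p = 0.0167) and Pcdhgc3 of 1.56 ± 0.46 (adjusted p = 0.0279, edgeR), against a median over all genes of 0.26 that fell by 0.261 under another scaling (relative log expression). That scaling, upper-quartile scaling and DESeq2 each gave 1 larger (Pcdhga1) and 1 smaller (Pcdhga6) change, without Pcdhgc3, and neither call remained without CAS129 MN 2 or without CAS129 PSC 2. Pcdhga1 was also lost without BL6 PSC 2, and Pcdhgc3 without BL6 PSC 1, CAST MN 1, 129 MN 2, CAS129 MN 1, CAS129 MN 3 or CAS129 PSC 1. The PSC levels behind Pcdhga1 were 0.626 and 0 CPM in CAS129 and 1.65 and 2.02 CPM in BL6.

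The change in CAST exceeded that in BL6 for 4 of 52 members (4.55% of genes), all in the gamma cluster. They were Pcdhga5 with a difference of 5.19 ± 1.47, Pcdhga1 with 3.30 ± 0.86, Pcdhgb7 with 2.37 ± 0.48 and Pcdhga12 with 1.86 ± 0.54 (adjusted p of 0.00741 to 0.0490, edgeR). No alpha or beta member passed the filter in PSC alone, so a difference resting on PSC levels was hardly detectable for them. Pcdhga5 had 0 CPM in both CAST PSC libraries and 0.359 and 0.155 CPM in the BL6 PSC libraries. Pcdhgb7 had 0.444 and 0.626 CPM in CAST PSC and 1.58 and 1.94 CPM in BL6 PSC. Without either CAST PSC library 1 of these calls was left, Pcdhga5 and Pcdhga12 both failed without any 1 of the 129 or CAS129 MN libraries or of the BL6 MN libraries other than BL6 MN 2, and the difference for Pcdhga5 rests on PSC levels of 0 to 0.359 CPM.

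Among PSC, 11 members could be tested and genotype differences were few. Pcdhgc3 was lower in CAS129 PSC, with 4.23 and 6.26 CPM, than in BL6 PSC, with 31.3 and 13.8 CPM (log2 fold change -2.06 ± 0.54, adjusted p = 0.0253, edgeR), and was the 1 member called, where 17% of 13795 genes were lower. The call was lost without BL6 PSC 1, CAS129 PSC 1 or CAS129 PSC 2. No member was called between CAST and BL6 PSC or between CAS129 and CAST PSC by edgeR or DESeq2, with 1 member at an unadjusted p under 0.05 in each comparison, where 10.5% and 14% of genes were called. At these depths most members lay at or under the limit of 3 counts in PSC, and differences between stem cells of different genotype were not detectable for them.

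Per kilobase of own exon, Pcdhgc3 had the highest level of all members in every group except 129CAS MN. It had 27.3 CPM per kb in CAS129 MN, 23.8 in CAST MN, 39.9 in 129 MN and 40.2 ± 9.37 in BL6 MN (SD, n = 7), and 1.55 in CAS129 PSC, 3.20 in CAST PSC and 6.67 in BL6 PSC. In BL6 MN its lowest library, at 27.5 CPM per kb, was above the highest library of Pcdhga10, at 17.5, the next in order with a mean of 14.4. Pcdhga7 followed with 9.03 CPM per kb, Pcdhga11 with 7.47, Pcdhgb4 with 6.60, Pcdhga3 with 6.55, Pcdha3 with 5.75 and Pcdhac2 with 5.07. The library ranges of Pcdhga10 (11.1 to 17.5) and Pcdhga7 (7.54 to 10.8) did not overlap, and those of the members from Pcdhga7 down to Pcdhac2 did, each with its neighbour. At the other end were Pcdha4 and Pcdhb1, at 0.0992 and 0.0729 CPM per kb.

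By subfamily, the median member in BL6 MN had 2.28 CPM per kb for alpha, 1.53 for beta, 3.56 for gamma A, 2.57 for gamma B and 3.71 for C-type. Dividing by all exon bases in place of own bases left the order of the first 6 members as it was and gave Pcdhgc3 24.7 CPM per kb. It changed the order further down, with Pcdha3 in place 13 (2.67 CPM per kb) and not 7, Pcdhac2 in place 14 (2.61) and not 8, and Pcdhb22 in place 7 and not 10. The subfamily medians were then 1.06 CPM per kb for alpha, 1.53 for beta, 1.92 for gamma A, 1.68 for gamma B and 2.24 for C-type, so the order of alpha and beta depends on the length used. In the 129CAS MN library the order was different, with Pcdhac2 first at 16.6 CPM per kb, then Pcdhga7 at 13.8, Pcdhb2 at 13.4, Pcdhb3 at 10.9 and Pcdhgc3 at 10.8.

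**Figure D3:**
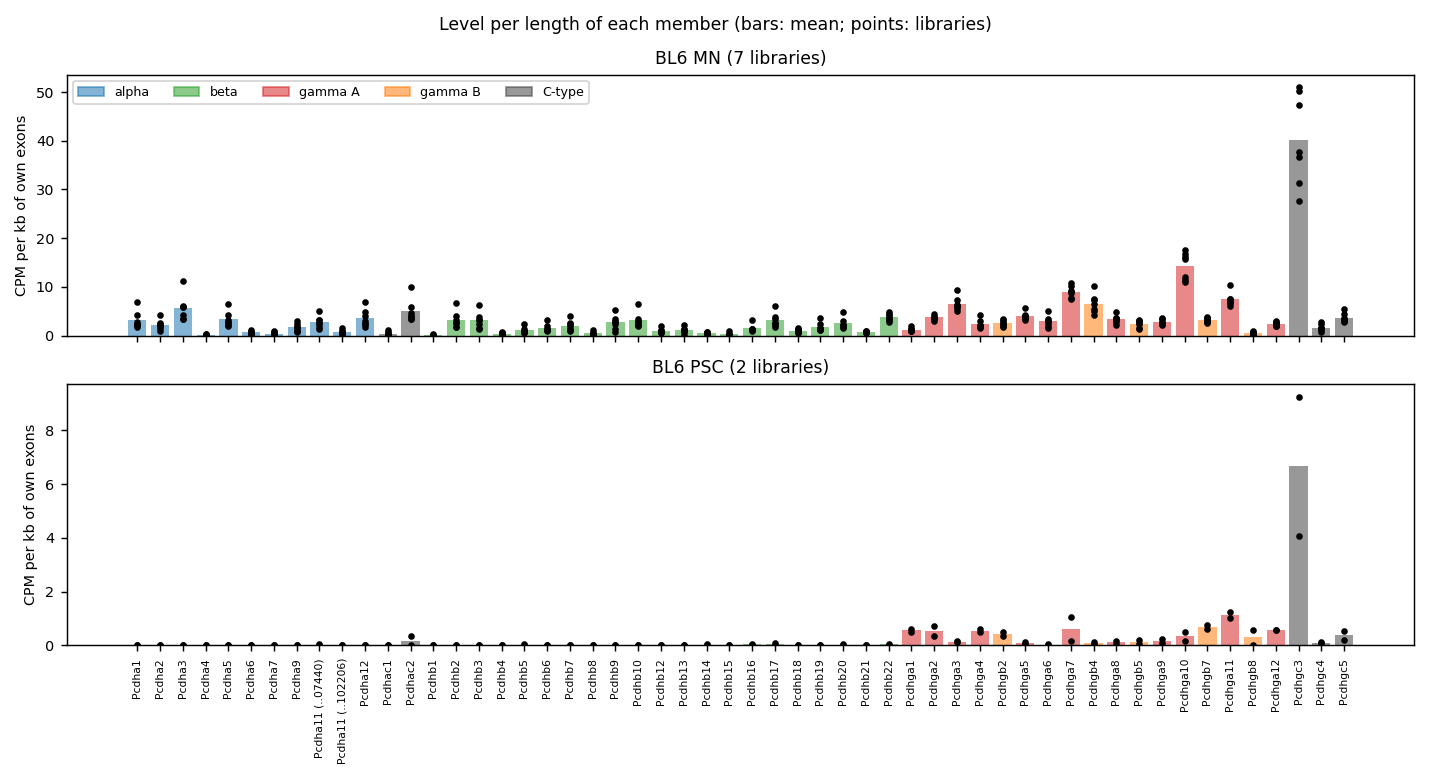
Level of each member per kilobase of exon bases that belong to that gene alone (y axis, CPM per kb; the panels have different scales), in the 7 BL6 motor neuron libraries (top) and the 2 BL6 stem cell libraries (bottom). Bars are means and points are libraries; Pcdhgc3 stands highest in both panels, at 40.2 and 6.67 CPM per kb.

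Pcdhgc3 also took a varying share of the members' counts. The share was 4.19% in 129CAS MN (890 of 21254 counts, Wilson 95% interval 3.93% to 4.47%), 21.4% ± 1.59 in CAS129 MN, 11.2% in CAST MN (10.4% to 11.9%), 18.1% ± 1.29 in 129 MN and 23.1% ± 6.66 in BL6 MN. In PSC it was 23.7% ± 7.58 in CAS129, 50.5% ± 1.73 in CAST and 48.2% ± 10.2 in BL6. Beta members took 16.2% to 44.4% in MN, the highest in 129CAS MN, and 0 to 7.03% in PSC. Alpha members took 6.20% to 15.1% in MN and 0 to 0.255% in PSC.

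Genotypes were next compared within MN. These comparisons share one estimate of the spread over all 14 MN libraries. The CAST and 129CAS groups have 1 MN library each, and marker sums differed between the groups. The 8 pan-neuronal markers left after Map2, which is listed at 0 in all hybrid libraries, summed to 4867 CPM in 129CAS MN, 1028 to 1407 CPM in CAS129 MN, 11770 CPM in CAST MN, 3451 to 5095 CPM in 129 MN and 3816 to 11880 CPM in BL6 MN. The 7 pluripotency markers measured summed to 367 to 952 CPM in CAS129 MN and to 44.6 to 120 CPM in all other MN libraries. The 11 mesenchyme markers summed to 20060 CPM in 129CAS MN, 48130 to 51230 CPM in CAS129 MN, 15640 CPM in CAST MN, 17220 to 25360 CPM in 129 MN and 26480 to 54750 CPM in BL6 MN. The 8 motor neuron markers summed to 1123 CPM in 129CAS MN, 216 to 299 CPM in CAS129 MN, 1603 CPM in CAST MN, 405 to 584 CPM in 129 MN and 458 to 1477 CPM in BL6 MN. The 4 epithelium markers summed to 1413 CPM in 129CAS MN, 219 to 254 CPM in CAS129 MN, 175 CPM in CAST MN, 914 to 1376 CPM in 129 MN and 82.6 to 382.5 CPM in BL6 MN, and all 4 were called higher in 129 MN than in BL6 MN. The 5 neural progenitor markers left after Olig2, also listed at 0 in all hybrid libraries, summed to 3233 CPM in 129CAS MN, 5953 to 6360 CPM in CAS129 MN, 2096 CPM in CAST MN, 2339 to 3058 CPM in 129 MN and 1505 to 4674 CPM in BL6 MN. The CAS129 MN libraries were thus lowest in both neuronal sums and highest in the progenitor and pluripotency sums. The progenitor sum mostly follows Vim and Nes, which averaged 2333 and 365 CPM over all 20 libraries. Pax6, Sox1 and Hes5 averaged 2.638, 4.495 and 0.4027 CPM, so the sum says little about them. The part of these differences between MN groups in the results on members was not tested.

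In 129 MN, 11 members were higher and 1 lower than in BL6 MN (edgeR; 18.3% of 14837 genes were higher and 18.1% lower). The share of members called higher was thus near that of all genes. The median log2 fold change of the 52 members was 0.35, against 0.00 over all genes. The 129 MN libraries held 44572794 and 41751493 counts and the BL6 MN libraries 7599737 to 10364807. A difference due to depth cannot be told apart here from one between genotypes. The higher members were 7 of 20 beta members, Pcdhgb8, Pcdhgb2 and Pcdhgb5 of 5 gamma B members, and Pcdhga1. Pcdhb15 had 4.23 and 6.37 CPM in 129 MN and 0 to 2.74 CPM in BL6 MN (log2 fold change 2.37 ± 0.65, adjusted p = 0.0121, edgeR), and Pcdhb8 had 5.76 and 7.42 CPM in 129 MN and 0.608 to 4.17 CPM in BL6 MN (1.90 ± 0.58, adjusted p = 0.0220, edgeR). The number called was 19 without BL6 MN 2. It fell without either 129 MN library, which leaves 1 library in that group, and with the replicate number as a block.

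In CAST MN, 5 members were higher and 1 lower than in BL6 MN (5.76% of genes were higher and 6.58% lower). Besides Pcdhgb8, the higher ones were the beta members Pcdhb6, Pcdhb5, Pcdhb18 and Pcdhb12. Pcdhb6 had 28.0 CPM in CAST MN and 3.28 to 11.9 CPM in BL6 MN (2.16 ± 0.45, adjusted p = 0.00727, edgeR), and Pcdhb5 had 14.8 CPM in CAST MN and 2.02 to 8.13 CPM in BL6 MN (1.85 ± 0.55, adjusted p = 0.0456, edgeR). Both CAST values lay above all 7 BL6 libraries. The number called was 17 without BL6 MN 2, and 4 without the hybrid libraries, where Pcdhb5 and Pcdhb12 did not pass. Pcdhb5 also failed without BL6 MN 1, 3, 4, 5, 6 or 7, 129 MN 1 or 2, or CAS129 MN 2.

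Pcdhgb8 was higher than in BL6 MN in each genotype tested against it. It had 12.8 CPM in 129CAS MN, 10.7, 7.61 and 10.1 CPM in CAS129 MN, 11.1 CPM in CAST MN and 11.02 and 10.5 CPM in 129 MN, against 0.890 to 2.64 CPM in BL6 MN (median 1.52). The 7 libraries of the other genotypes all lay above the 7 BL6 libraries. The log2 fold change over BL6 MN was 2.53 ± 0.28 in CAS129 MN (adjusted p = 6.72e-06), 2.80 ± 0.37 in CAST MN (adjusted p = 0.000307) and 2.69 ± 0.30 in 129 MN (adjusted p = 1.50e-05, edgeR). The 3 comparisons share the BL6 libraries. In PSC, Pcdhgb8 had 2.04 and 1.955 CPM in CAS129, 0.888 and 1.002 CPM in CAST, and 0.0718 and 1.47 CPM in BL6, so that the BL6 values lay on both sides of the CAST values and below the CAS129 values.

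Pcdhga10 was lower in 129 MN than in BL6 MN (-0.82 ± 0.21, adjusted p = 0.00829) and lower in CAST MN than in BL6 MN (-1.52 ± 0.31, adjusted p = 0.00653, edgeR), and the CAST and 129 libraries all lay below the lowest BL6 library. The call in 129 was lost without 129 MN 2. Its antisense gene Gm26672 had 5.84 CPM in 129CAS MN, 53.8 ± 2.61 CPM in CAS129 MN, 34.6 CPM in CAST MN, 2.22 ± 0.108 CPM in 129 MN and 62.5 ± 10.9 CPM in BL6 MN. In 129 MN, Pcdhga10 thus had 24.7 and 22.1 CPM where Gm26672 averaged 2.22 CPM. The part of the antisense gene in the counts of Pcdhga10 was not tested.

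In CAS129 MN, 2 members were higher and 20 lower than in BL6 MN (27% of genes were higher and 32.5% lower), or 18 lower without Pcdhgc4 and the pair named Pcdha11. The share of members called lower was thus near that of all genes. The median over members was -0.66, against -0.08 over all genes. Of those lower, 4 were alpha, 6 beta, 4 gamma A, 2 gamma B and 4 C-type members. Pcdhb9 had 1.02, 2.60 and 0.746 CPM in CAS129 MN and 2.43 to 16.3 CPM in BL6 MN (-2.61 ± 0.61, adjusted p = 0.00260, edgeR), and Pcdhb10 had 2.04, 1.38 and 1.68 CPM in CAS129 MN and 5.47 to 18.6 CPM in BL6 MN (-2.50 ± 0.44, adjusted p = 0.000293, edgeR). Pcdhgb4 fell by 2.11 ± 0.31, Pcdhga3 by 1.07 ± 0.20 and Pcdhgc3 by 0.67 ± 0.19 on the log2 scale, whereas Pcdhgb7 rose by 0.82 ± 0.16, with 15.5, 17.6 and 14.7 CPM in CAS129 MN and 6.56 to 9.72 CPM in BL6 MN. Upper-quartile scaling, which moved the median of all genes by 0.148, gave 4 higher and 15 lower, and Pcdhac2 (-0.80 ± 0.32, adjusted p = 0.0486, edgeR) was lost under it and without BL6 MN 5, BL6 MN 6 or any 1 of the 129 or CAS129 MN libraries.

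Many members were also lower in CAS129 MN than in MN of its parent strains, in comparisons that share the CAS129 libraries. Against 129 MN, 1 member was higher and 25 lower in CAS129 MN (25.2% and 31.4% of genes), among them 15 of 20 beta members, and against CAST MN, 1 was higher and 23 lower (21.4% and 27% of genes), among them 11 of 20 beta and 5 of 10 alpha members. Without Pcdhgc4 and the Pcdha11 pair, 24 were lower against 129 and 22 against CAST. Pcdhb4 had 0, 0.346 and 1.31 CPM in CAS129 MN, against 5.18 CPM in CAST MN and 5.24 and 5.90 CPM in 129 MN, and its log2 fold change was -3.29 ± 0.85 against CAST (adjusted p = 0.00710) and -3.33 ± 0.74 against 129 (adjusted p = 0.00197, edgeR). Pcdha2 had 1.70, 1.04 and 0.933 CPM in CAS129 MN, against 14.6 CPM in CAST MN and 4.37 and 7.54 CPM in 129 MN, with -3.59 ± 0.60 against CAST (adjusted p = 0.000435) and -2.23 ± 0.53 against 129 (adjusted p = 0.00328, edgeR). Pcdhb6 fell by 3.29 ± 0.55 against CAST and Pcdhb15 by 2.86 ± 0.90 against 129. The member higher against 129 was Pcdhgb7 (0.69 ± 0.22) and that against CAST was Pcdhga10 (0.97 ± 0.32). Without 129 MN 2 the number lower against 129 was 11, with none higher and Pcdhb15 lost, and Pcdhb15 was also lost without CAS129 MN 3. Pcdhgb7 was not called without 129 MN 1 or CAS129 MN 2, nor Pcdhga10 against CAST without CAS129 MN 1.

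The 129CAS library was higher than the CAS129 libraries for 17 of 20 beta members in the fit with all libraries, and for 9 of 20 without CAS129 MN 1. In the 129CAS MN library 26 members were higher and 1 lower than in CAS129 MN (14.6% and 15.7% of genes), with a median of 1.53 over members and 0 over all genes. The higher ones were 17 beta, 3 alpha, 4 gamma A and 1 gamma B members, and Pcdhac2. Pcdhb4 had 7.61 CPM in 129CAS MN, against 0, 0.346 and 1.31 CPM in CAS129 MN (3.66 ± 0.82, adjusted p = 0.00577, edgeR). Pcdhb15 had 8.15 CPM in 129CAS MN, against 0.850, 0.692 and 0.560 CPM in CAS129 MN (3.37 ± 1.01, adjusted p = 0.0240, edgeR). The value of Pcdhb6 was 30.1 CPM in 129CAS MN, against 3.91, 2.94 and 1.87 CPM in CAS129 MN (3.21 ± 0.54, adjusted p = 0.00110, edgeR).

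Pcdhgc3 went the other way, with 36.6 CPM in 129CAS MN against 90.7 to 93.2 CPM in CAS129 MN (-1.48 ± 0.34, adjusted p = 0.00672, edgeR). Pcdhac2 rose by 2.26 ± 0.46 (adjusted p = 0.00334, edgeR). The 2 C-type genes thus differed in opposite directions between the hybrids. The 129CAS group is 1 library with 25686979 counts, against 5612575 to 6294099 in CAS129 MN, and without CAS129 MN 1 the number called was 14 higher and 1 lower. Pcdhb15 was lost without any 1 of the CAS129 MN libraries.

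**Figure D4:**
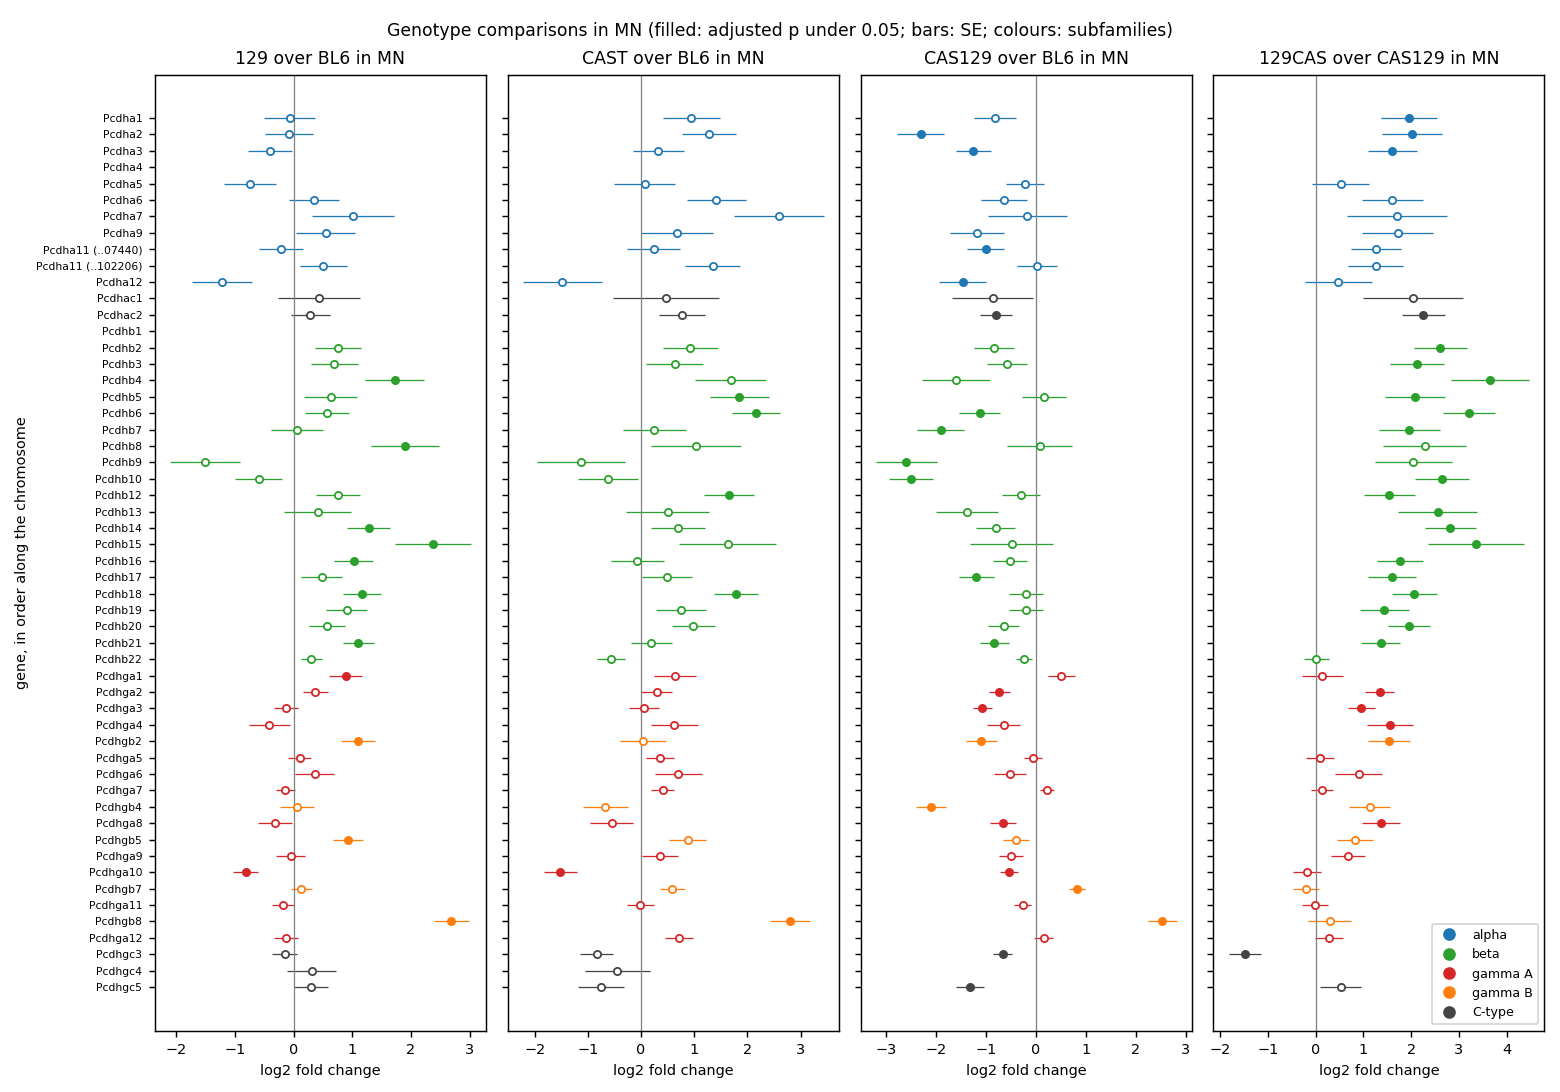
Log2 fold change between motor neuron genotypes for each member in chromosome order (129 over BL6, CAST over BL6, CAS129 over BL6 and 129CAS over CAS129), with bars of 1 SE and filled points where the adjusted p is under 0.05 in edgeR. Pcdha4 and Pcdhb1 were not tested, and Pcdhgc4 is left out of the panels with hybrids, where it is listed at 0; most filled points are above 0 in the 129CAS panel and below 0 in the CAS129 over BL6 panel.

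The 7 BL6 MN libraries also varied among themselves. BL6 MN 2 held the highest value of 42 of the 54 members, a count that was not made over all genes. These included 20 of 21 beta, 9 of 11 alpha and 8 of 12 gamma A members. Only 2 of 5 gamma B members were among them, and the gamma B sum was 48.8 CPM there and highest in BL6 MN 3, at 70.0 CPM. Alpha members summed to 62.4, 119, 37.0, 42.0, 59.3, 64.0 and 49.3 CPM in libraries 1 to 7, and beta members to 170, 273, 106, 89.9, 133, 143 and 127 CPM. Pcdhgc3 had its lowest value where these sums were highest, with 106, 93.1, 172.5, 169, 124, 127.5 and 160.3 CPM. The 9 pan-neuronal markers summed to 6879, 12630, 4019, 4091, 7671, 7542 and 4746 CPM, and the 11 mesenchyme markers to 48390, 28430, 54750, 52370, 26480, 27360 and 36240 CPM. Libraries 3 and 4, lowest in beta members and in neuronal markers, were highest in mesenchyme markers and in Pcdhgc3. The 7 glia markers summed to 307.5 CPM in BL6 MN 2 and to 20.42 to 46.83 CPM in the other BL6 MN libraries. The part of the neuronal or glial content of a culture in the values of the members was not tested.

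**Figure D5:**
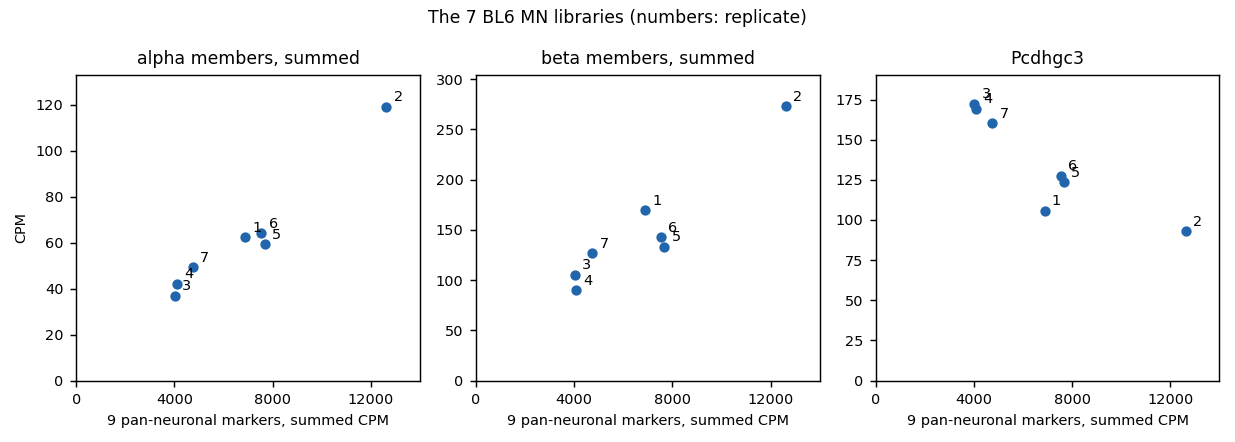
Summed level of alpha members, of beta members and level of Pcdhgc3 (y axes, CPM) in the 7 BL6 motor neuron libraries, against the summed level of 9 pan-neuronal markers (x axis, CPM); each point is a library, numbered by replicate. Library 2 is highest for alpha (119 CPM) and beta members (273 CPM) and lowest for Pcdhgc3 (93.1 CPM).

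Other genes of the same biology were read from fixed lists in the fit of MN against PSC over 3 genotypes, where 36.1% of genes were higher and 38.5% lower (edgeR). Of 15 regulators of promoter choice tested, 11 were lower in MN. Trim28, a co-repressor, fell by 2.57 ± 0.22 on the log2 scale, the cohesin subunit Rad21 by 1.81 ± 0.12, the maintenance methyltransferase Dnmt1 by 2.72 ± 0.17, Ctcf by 1.30 ± 0.14 and Smchd1, which represses the clusters in the mouse, by 0.86 ± 0.20. Stag2, Nipbl and Dnmt3a did not pass.

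Of 18 binding partners and downstream genes, 13 were higher and 2 lower in MN. Marcks, an actin-regulating substrate of protein kinase C, rose by 2.70 ± 0.20, the GTPase Rac1 by 0.56 ± 0.12 and Nckap1, of the WAVE actin complex, by 0.69 ± 0.19. Axin1 fell by 0.88 ± 0.14 and Wasf1 by 0.43 ± 0.19. All 10 delta protocadherins, relatives encoded outside the clusters, were higher in MN, among them Pcdh7 (5.78 ± 0.54), Pcdh10 (10.1 ± 0.64) and Pcdh17 (9.49 ± 0.49). Of 22 tested protein-coding genes within 500000 bp of the clusters, 5 were higher and 13 lower. Rnf14 rose by 2.05 ± 0.14 and Hbegf by 2.11 ± 0.28, whereas Diaph1 fell by 1.957 ± 0.17 and Taf7, on the minus strand between the beta and gamma clusters at 37640491 to 37644204, by 2.36 ± 0.19.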

How the data were processed

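The authors deposited raw read counts per gene identifier for whole libraries. STAR and the genome build GRCm38 (mm10) are named in the submitters' processing notes; per the labels' protocols, poly-T beads captured the RNA and random hexamers primed the cDNA, after DNase treatment. No source used here gives the counter, its strand setting, the annotation or the handling of reads from strains other than BL6. Of the count columns, 8 matched no sample here and were not used, and 7 of the 27 samples were not analysed here. Samples were grouped by genotype and cell type from their titles.

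Members were found in the GENCODE M21 annotation (GRCm38), which also gave coordinates and the exon bases that belong to 1 gene. Counts were fitted with edgeR 4.0.16 in R 4.3.3 (quasi-likelihood F test, 2-sided, TMM scaling, genes with at least 1 CPM in 2 libraries, Benjamini-Hochberg adjustment within each of 15 comparisons over all genes tested, threshold 0.05). MN against PSC over 3 genotypes used 17 libraries with genotype as a term; comparisons within a genotype and their differences used all 20 libraries in 8 groups; genotypes were compared over the 6 PSC or the 14 MN libraries. A group of 1 library was assumed to vary like the other groups. The scripts were tested on simulated data. Sums, shares and levels per kilobase were described without a test, with Python 3.11.15.

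The members and gene lists were chosen with earlier results of these data known. Named members are the 5 C-type members, the 4 with the highest CPM per kb in each other subfamily, and in each comparison up to 3 called members with the largest rise and 3 with the largest fall; from each gene list up to 3 called genes with the highest level, and the others named were chosen after their values were seen. Alternatives were relative log expression (RLE) and upper-quartile scaling, DESeq2 1.42.0, no filter or at least 10 counts in 2 libraries, a replicate block and leaving out each library. Leaving out the hybrid libraries, and leaving out Pcdhgc4 with the pair named Pcdha11, were chosen after seeing the data. No 2 libraries agreed within sampling noise. The result of 1 gene of the regulator list is not reported here.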

Additional observations from a re-analysis of the deposited data

Results flagged for a closer look

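Among the 7 BL6 MN libraries, BL6 MN 2 lay far above the other 6 for several members, in 9 of 40 sets of values checked. All sets come from the same 7 libraries and the sums contain single members, so the 9 are not independent. The same check was not made over all genes. The values in BL6 MN 2 were 27.85 CPM for Pcdha3, 30.29 CPM for Pcdhac2, 18.6 CPM for Pcdhb10 and 17.07 CPM for Pcdhb20. They were 4.167 CPM for Pcdhb8, 27.64 CPM for Pcdhga11 and 14.53 CPM for Pcdhga5. The sum over all members was 786.8 CPM there and the sum over alpha members 119.1 CPM. The same library had the highest sum of pan-neuronal markers, at 12630 CPM against 4019 to 7671 CPM in the other 6. It also had the highest sum of the 7 glia markers, at 307.5 CPM against 20.42 to 46.83 CPM in the other 6. The part of these differences in its values was not tested.

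For some members the change of MN over PSC differed between genotypes in a direct test of the difference (edgeR, all 20 libraries). Against BL6, the change in CAS129 was larger by 3.01 on the log2 scale for Pcdhga1 and by 1.56 for Pcdhgc3. The median over all genes was 0.261 in this comparison and 0 under RLE scaling. Pcdhgc3 was not called under RLE scaling, upper-quartile scaling or DESeq2. The change in CAST was larger than in BL6 by 3.3 for Pcdhga1, 5.19 for Pcdhga5, 2.37 for Pcdhgb7 and 1.86 for Pcdhga12. All 6 rest on the 2 PSC libraries of each genotype, and those in CAST also on a single MN library.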

How the results depend on the processing

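No fold change of a member called in a comparison changed sign under any alternative run, whereas 187 of 6950 alternative values of members not called did. All 52 members tested stayed higher in MN over 3 genotypes in every fit, with 52 to 52 called when single libraries were left out. Leaving out a library gave 50 to 51 members called in BL6, 51 to 52 in CAST, 42 to 51 in CAS129, 0 to 3 for the larger or smaller change in CAS129 and 1 to 5 for that in CAST. In PSC it gave 0 to 0 for CAST over BL6, 0 to 2 for CAS129 over BL6 and 0 to 0 for CAS129 over CAST. In MN it gave 1 to 19 for 129 over BL6, 4 to 17 for CAST over BL6, 17 to 24 for CAS129 over BL6, 11 to 32 for CAS129 over 129, 18 to 32 for CAS129 over CAST and 15 to 32 for 129CAS over CAS129. The highest of these counts came without BL6 MN 2 in all but CAS129 over BL6. The share of all genes called in each of these fits is not given here, so the counts cannot be set against it. Without the filter the change in CAST gave 2 called. The summed level of all members was 574.3 to 614.8 CPM in BL6 MN, 683.5 to 812.8 in 129 MN, 421.5 to 447.5 in CAS129 MN, 33.63 to 56.42 in BL6 PSC, 16.03 to 26.62 in CAST PSC and 21.51 to 23.01 in CAS129 PSC. With RLE scaling it was 781.8 CPM in 129CAS MN, 401.0 in CAS129 MN, 747.8 in CAST MN and 24.83 in CAS129 PSC, and with raw totals 827.4, 770.5 and 25.57 CPM in 129CAS MN, CAST MN and CAS129 PSC. Upper-quartile scaling moved the median of all genes by 0.174 for CAS129 over 129, 0.148 over BL6 and 0.117 over CAST in MN and by 0.207 for CAS129 over CAST in PSC. Pcdhgc3 had 24.73 CPM per kb of all exons in BL6 MN. Few counts in PSC limit what can be seen there.

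Replicate numbers were not treated as pairing the samples in the main fits. Same-numbered libraries of 2 groups correlated in their deviations between -0.121 and 0.435, and not every pair was over 0.1. The highest value was that of 129 MN 2 with BL6 MN 2. In PSC the values were 0.314 for BL6 with CAST, 0.36 for CAS129 with CAST and 0.029 for BL6 with CAS129. Whether libraries of the same number share a batch was not tested. With the number as a replicate block, 3 members (1 higher, 2 lower) were called in 129 over BL6 MN, 2 in CAST over BL6 MN, 1 for the change in CAS129 and 0 for that in CAST; no other count moved by over 1.5 times.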
